A study of Macaca mulatta with 4 samples.

Results

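Cytosolic ribosomal protein genes were examined in the macaque line RF/6A (Macaca mulatta), whose cells the labels describe as chorioretinal. Members were the rows of the count table whose rhesus symbol is that of a ribosomal protein of the large (RPL) or small (RPS) subunit, or RPLP0, RPLP1, RPLP2 or RPSA, with the kinases named RPS6K left out. The rule found 68 of 21314 rows, 38 for the large and 30 for the small subunit. These rows carry 65 distinct symbols, because RPS2, RPS27A and RPSA each stand on 2 rows. Of the rows, 62 have a standard ribosomal protein name and 6 have the name of a paralog, which are RPL3L, RPL7L1, RPL22L1, RPS27L, RPS4Y1 and RPS4Y2.

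RNA sequencing of RF/6A was done in 4 libraries, titled Static1 to Static4 and called libraries 1 to 4 here, all from cells bought from one cell bank as 1 lot and grown in the same serum-supplemented medium with antibiotics. There is 1 group, with no treated cells and no other cell type, so no contrast between conditions was possible. No label says that the libraries came from separate cultures, and their spread may be technical. The libraries held between 20366946 and 20550610 estimated counts. Of 10 endothelial markers, 2 were at or above 1 CPM in every library (counts per 1000000 counts of a library), while all 8 fibroblast and mesenchymal markers were, and ROBO4 had no count. Photoreceptor markers ARR3 and SAG averaged 0.106 and 0.139 CPM, and of 3 matched retinal pigment epithelium markers BEST1 averaged 15.4 CPM, RPE65 1.45 CPM and RLBP1 0.0267 CPM. BEST1 had 15.1, 1.48, 29.8 and 15.2 CPM in libraries 1 to 4. Library 2 stood apart from the other 3 in overall composition, so its value is given apart throughout. It had 15561 genes with a count against 16130 to 16265, and a summed endothelial marker level of 24.9 CPM against 102 to 133 CPM. The summed fibroblast level differed little, at 35607 CPM against 36444 to 37594 CPM. Most of the endothelial sum was FLT1, at 19.7 CPM in library 2 against 96.1 to 126 CPM. KDR was also lower, at 0.432 CPM against 1.49 to 2.5 CPM, while PECAM1 had 2.1 CPM against 2.05 to 3.41 CPM. CDH5 was higher, at 1.05 CPM against 0.364 to 0.497 CPM. Among other endothelial markers with few counts, ERG and TEK were lower in library 2 than in every other library, and NOS3 was higher. Within the fibroblast sum FN1 was lower in library 2, at 3228 CPM against 12620 to 14908 CPM, and COL1A1 higher, at 16445 CPM against 8427 to 9600 CPM.

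The cytosolic ribosome is built from ribosomal RNA and a copy of nearly every ribosomal protein, divided between a small subunit that decodes messenger RNA and a large subunit that joins amino acids. Most vertebrate ribosomal protein messenger RNAs start with a terminal oligopyrimidine tract, through which their translation is adjusted together with growth signals. Cells in culture that are dividing usually give a large part of their messenger RNA to these genes. Because the proteins are needed in equal number, their genes are often treated as a set, although transcript length and read assignment affect the count of each.

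The coverage of this set was partial. Of 79 standard ribosomal protein names, 59 were found among the members. FAU, which encodes a ubiquitin-like protein fused to a small subunit protein, is outside the rule's spelling but has a named row. No symbol matched 19 names, among them RPL11, RPL14, RPL21, RPL23, RPL29, RPL34, RPL35A, RPL36A, RPL37, RPL41 and RPLP0 of the large subunit and RPS6, RPS9, RPS10, RPS15, RPS18, RPS20 and RPS26 of the small subunit. The 19 were not analysed here. The table has 6660 rows with no symbol, which held 13.9%, 21.7%, 13.1% and 13.6% of the counts of libraries 1 to 4, so the shares below cover the named rows and not the whole set.

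Ribosomal protein rows took a larger part of library 2 than of the others. Their share was 6.73% of the estimated counts in library 1 (exact 95% binomial interval 6.72 to 6.74), 16.1% in library 2 (16.13 to 16.16), 6.47% in library 3 (6.46 to 6.48) and 7.11% in library 4 (7.10 to 7.12). These intervals cover counting error and not the assignment of reads among similar genes. Library 2 was 2.38 times the mean of the others, which was 6.77% ± 0.32 (SD, n = 3). The mean over all libraries was 9.11% ± 4.69 (SD, n = 4), and most of that spread comes from library 2. Both subunits took part. Large subunit rows held 4.28%, 9.84%, 4.13% and 4.55% of libraries 1 to 4, and small subunit rows 2.45%, 6.31%, 2.35% and 2.56%. In library 2 the large subunit share was 2.28 times and the small subunit share 2.57 times the mean of the other 3 libraries.

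**Figure D1:**
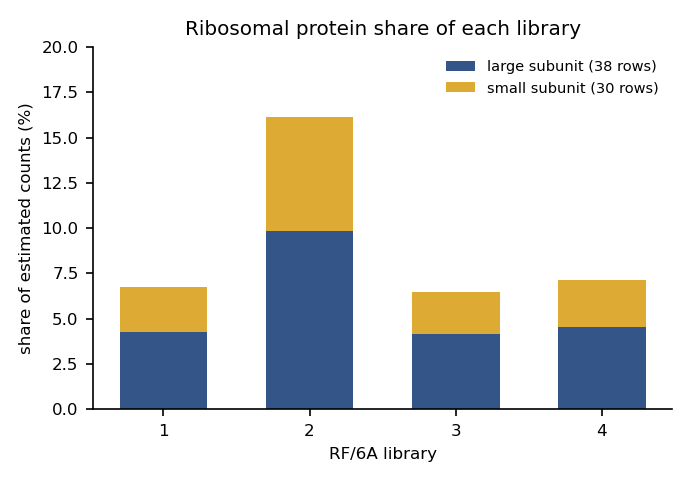
Bars give the percent of each library's estimated counts that fell on the 38 large subunit rows (blue) and the 30 small subunit rows (yellow), stacked, for RF/6A libraries 1 to 4. Library 2 reaches 16.1%, and the other libraries lie between 6.47% and 7.11%.

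For single genes, TMM scaling (edgeR's trimmed mean method, which sets most genes level between libraries) was applied before conversion to CPM. Expressed here means at least 1 CPM in all 4 libraries. Of the 68 members, 64 were expressed, against 64.3% of all 17534 rows with a count. The 4 others were RPL3L, RPS4Y1, RPS4Y2 and the second row of RPS2. Of the standard rows, 39 of 62 averaged 1000 CPM or more, 18 lay between 100 and 1000 CPM, 4 between 1 and 100 CPM and 1 below 1 CPM. No transcript lengths were at hand, so CPM compares a gene with itself between libraries, and a difference in CPM between genes is a difference in counts and not in molecules.

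On that scale of counts the members were widely spread. The median standard row had 752, 2743, 735 and 808 CPM in libraries 1 to 4, and the SD of log2(CPM + 0.5) across the 62 rows was 2.27 ± 0.09 (mean and SD over 4 libraries). Low rows set much of it, since over the standard rows that averaged at least 5 CPM it was 1.57 ± 0.01. The 10 rows with the largest counts held between 42.9% and 43.5% of the summed CPM of the standard rows in libraries 1, 3 and 4, and 36.5% in library 2. The order of genes was otherwise similar. Across the 64 expressed members the Pearson correlation of log2(CPM + 0.5) was 0.998 to 0.999 among libraries 1, 3 and 4 and 0.972 to 0.977 for pairs with library 2. Over the 12453 genes that averaged 1 CPM or more, pairs with library 2 had 0.804 to 0.835. Genes are not independent replicates, and these correlations describe the libraries.

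**Figure D2:**
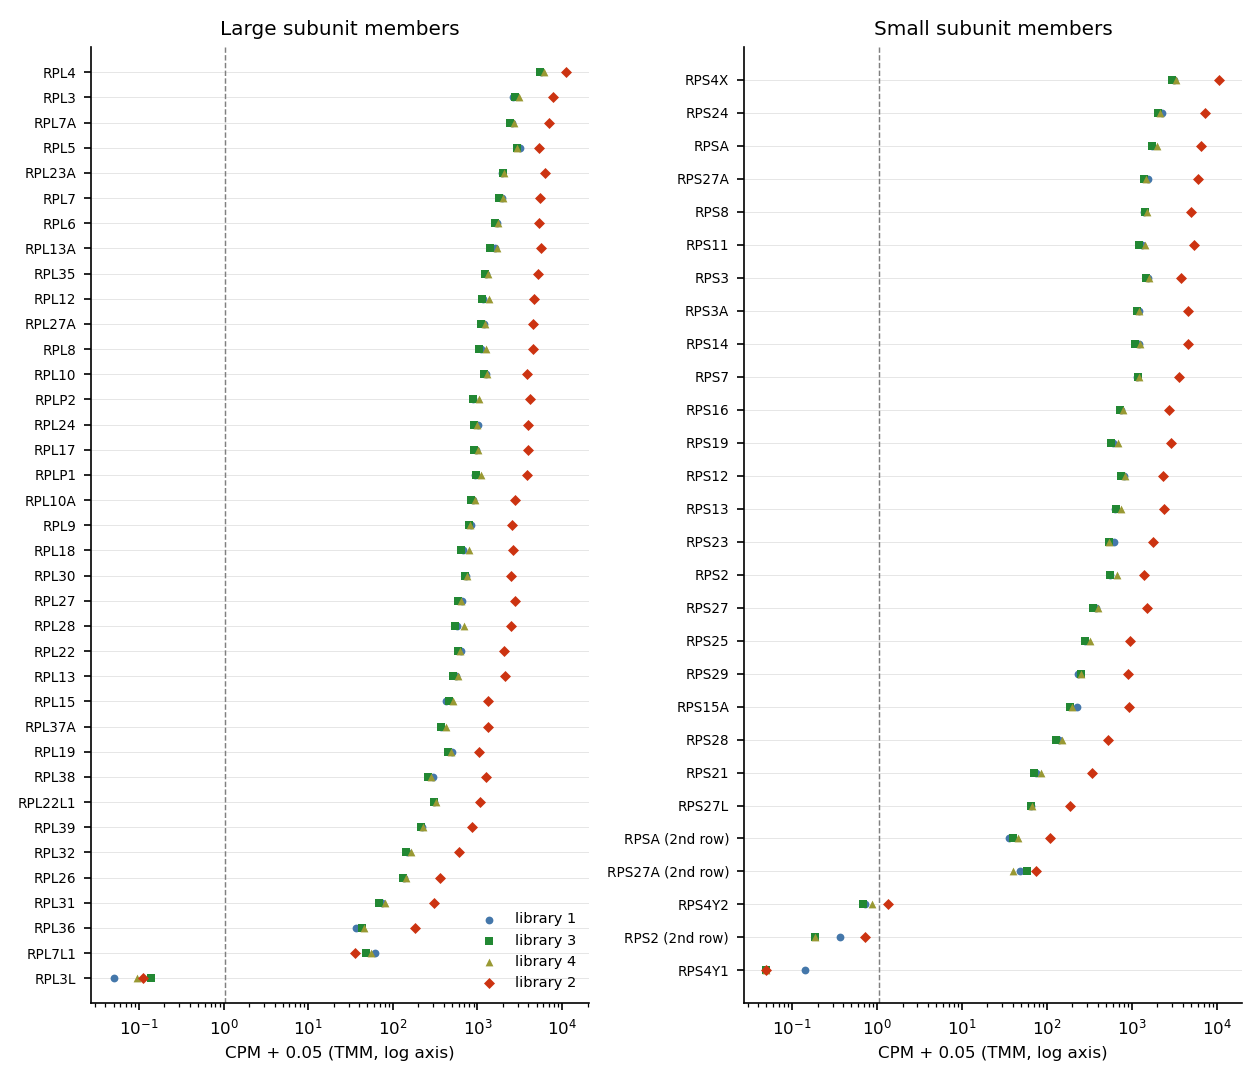
Each point is the level of 1 of 65 member rows in 1 library, in CPM + 0.05 on a log axis, for large subunit rows (left) and small subunit rows (right), ordered by mean CPM, with a dashed line at 1 CPM. Red diamonds for library 2 lie right of the other libraries in 60 of the 61 expressed rows drawn, the exception being RPL7L1, and libraries 1, 3 and 4 mostly overlap.

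The difference in library 2 ran through nearly the whole set. Each gene's library 2 level was divided by the median of libraries 1, 3 and 4, as a log2 ratio of CPM + 0.5. The median ratio of the 64 expressed members was 1.85, a 3.6-fold difference, against -0.07 over all 12453 genes. The difference of these medians was 1.92 with TMM. It was between 1.90 and 1.93 with plain CPM, DESeq2 size factors or upper quartile scaling. A change of scaling moves the ratios of all genes by nearly the same amount. The closeness of these differences was therefore fixed in advance and is no test of the result. The scalings moved the median of all genes from -0.49 to 0.12. Library 2 was the highest library for 62 of the 64 members, against 43.8% of all genes. In library 2, 59 members were at least 2-fold higher, against 19.4% of all genes, and none was at least 2-fold lower, against 26.8%. By Dixon's gap test, which asks whether a single library lies apart from the rest, library 2 lay apart and highest for 61 members, against 21.8% of all genes, and apart and lowest for none, against 11.2%. With plain CPM, 55 members and 9.59% of all genes were 2-fold higher. The gap test serves here to describe how the libraries lie and supports no claim about library 2, because no label sets that library apart and it was picked out from these data.

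The members' ratios lay close together. They had an SD of 0.51 and a middle range of 1.58 to 2.02, where all genes had an SD of 1.40 and a middle range of -1.09 to 0.80. Closeness was not particular to the members. The 14 matched small subunits of the respiratory chain, counted further below, had an SD of 0.33 and a middle range of 1.42 to 1.77. The median was 1.87 for the 37 expressed large subunit rows and 1.84 for the 27 expressed small subunit rows. Against these ratios, the spread among libraries 1, 3 and 4 was small. The SD of log2(CPM + 0.5) over libraries 1, 3 and 4 had a median of 0.0884 across members, and the largest, 0.26, belonged to the second RPS27A row. In 61 members the library 2 ratio was more than 3 times that gene's own SD above 0, against 35.2% of all genes. That count is a description and supports no claim about library 2, which was picked out from these data.

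Smaller shifts shared by the set were present among the other libraries too. The median ratio of a library to the other 3 was -0.08 in library 1, -0.16 in library 3 and 0.07 in library 4. Over all genes it was 0.00, 0.00 and 0.01. Library 2 is among the other 3 each time and was the highest for 62 of 64 members, which lowers the members' values. The direct comparisons that follow do not involve library 2. Library 4 was above library 3 for 60 of 64 members, against 50.4% of all genes, and above library 1 for 49, against 50.6%. Library 1 was above library 3 for 51 members, against 48.9%. The same order is seen in the shares of total counts.

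The stalk proteins, which recruit the translation factors that hydrolyse GTP, had ratios of 2.02 and 2.26. RPLP1 measured 924, 3850, 948 and 1110 CPM in libraries 1 to 4. RPLP2, its partner in the stalk dimer, measured 880, 4220, 877 and 1030 CPM. Libraries 1, 3 and 4 lay close together for both genes and library 2 was far above them, more so for RPLP2. RPL12, which sits at the base of the stalk, had 1165, 4668, 1143 and 1370 CPM, a 4.01-fold difference.

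RPL38 and RPL36 had ratios above the median of the large subunit rows. RPL38, known from a mouse mutant with altered patterning of the skeleton, had 297, 1276, 258 and 281 CPM and a ratio of 2.18. Library 2 was more than 4 times every other library. RPL36 averaged 76.6 ± 69.9 CPM (SD, n = 4), and its ratio was 2.06, although it was among the 5 standard rows with the fewest counts.

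Proteins of the core and the exit tunnel fell on both sides of the median. RPL3, near the catalytic centre of the large subunit, had 2640, 7796, 2771 and 3115 CPM and a ratio of 1.49. RPL10, which joins late in assembly close to the same centre, had 1264, 3820, 1197 and 1300 CPM and a ratio of 1.60. RPL17 and RPL39, both at the tunnel through which the new protein leaves, had ratios of 2.03 and 1.95. RPL39 measured 222, 860, 214 and 226 CPM. RPL7 and RPL7A had ratios of 1.46 and 1.45, and in libraries 1 to 4 RPL7A measured 2587, 7075, 2413 and 2716 CPM. In all 6 genes library 2 lay above the other libraries, which were close to one another.

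Large subunit proteins around the tunnel exit, where factors that handle new proteins dock, were also higher in library 2. RPL23A measured 1927, 6263, 1979 and 2079 CPM, a ratio of 1.66. RPL35 measured 1272, 5256, 1212 and 1333 CPM, a ratio of 2.05. RPL26 had 136, 364, 132 and 143 CPM and a ratio of 1.42, so that neighbours at this site differed in the size of the change while sharing its direction. RPL8, a protein of the subunit core, measured 1099, 4554, 1056 and 1259 CPM, a ratio of 2.05. RPL13A, which in humans can leave the ribosome to silence inflammatory messenger RNAs, measured 1590, 5661, 1416 and 1694 CPM, a ratio of 1.83. RPL28, which has no counterpart in baker's yeast, had 567, 2469, 544 and 699 CPM, and it showed one of the wider spreads among the other libraries, with library 4 above libraries 1 and 3.

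RPL4 and RPL5 differed least among the standard large subunit members. RPL4, which also lines the exit tunnel, measured 5659, 11273, 5529 and 6172 CPM, a ratio of 0.99. RPL5, which binds a small ribosomal RNA and can hold the p53 regulator MDM2, measured 3175, 5294, 2912 and 2905 CPM, a ratio of 0.86. Library 2 was still the highest for both, and their SDs of log2(CPM + 0.5) over the other libraries were 0.084 and 0.073. The next lowest was RPL19, with 503, 1050, 448 and 491 CPM and a ratio of 1.09. RPL4 and RPL5, RPL7L1 and the second RPS27A row were among the 5 expressed members that were not 2-fold higher.

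Small subunit genes gave a similar picture. RPS19, the gene most often mutated in Diamond-Blackfan anaemia, measured 595, 2893, 567 and 691 CPM, and its ratio of 2.28 was the highest of the subunit. RPS15A followed with 224, 933, 187 and 198 CPM and a ratio of 2.23. RPS14, whose loss underlies the anaemia of a myelodysplastic syndrome, had 1201, 4601, 1103 and 1239 CPM and a ratio of 1.94. Library 2 exceeded the other libraries in each of these genes by far more than they differed among themselves.

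Lower in the range was RPS3, which lies at the entry of the messenger RNA channel, with 1548, 3831, 1481 and 1594 CPM and a ratio of 1.31. RPS2, at the same entry, had 547, 1385, 551 and 670 CPM on its main row and a ratio of 1.33. RPS4X, an X-linked gene that escapes X inactivation in humans, measured 3110, 10718, 2941 and 3284 CPM, a ratio of 1.78. RPS24 measured 2251, 7195, 2057 and 2143 CPM, a ratio of 1.75. These 4 genes keep the same arrangement of libraries, with library 2 on its own above the rest.

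Other small subunit genes filled the range between these. RPS23, which reaches into the decoding centre, measured 622, 1783, 535 and 534 CPM, a ratio of 1.74. RPS25, needed for initiation at some viral internal entry sites, had 279, 940, 281 and 318 CPM and the same ratio. The small proteins RPS21, RPS28 and RPS29 had fewer counts, and their ratios of 2.15, 1.91 and 1.84 were close to the median or above it. RPS28 measured 140, 528, 127 and 150 CPM, and RPS29 measured 234, 893, 250 and 254 CPM. In each of them library 2 did not overlap the other libraries.

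The symbols that stand on 2 rows behaved differently from row to row. RPSA, also known as the laminin receptor, had a main row (ENSMMUG00000022965) with 1748, 6482, 1744 and 1998 CPM and a second row (ENSMMUG00000004941) with 36.1, 110, 39.4 and 45.4 CPM. The second row took between 1.67% and 2.22% of the RPSA counts, and its ratio was 1.47 against 1.89 for the main row. RPS27A, made as a fusion with ubiquitin, had 1537, 5995, 1401 and 1478 CPM on its main row (ENSMMUG00000015563), a ratio of 2.02. Its second row (ENSMMUG00000013907) had 48, 75.2, 57.6 and 40 CPM, a ratio of 0.64, and took 1.24% of the RPS27A counts in library 2 and 2.64% to 3.95% in the others. The second RPS2 row (ENSMMUG00000047277) had 7, 11, 3 and 3 counts. Reads that fit both rows are divided by estimation, so the split between rows is uncertain.

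Paralogs were compared with the gene they resemble through the difference of log2(CPM + 0.5) within each library. Transcript length enters that difference, and whether its effect was the same in every library was not tested. Of 10 paralog and parent pairs, 3 had both genes on a single row with a mean of at least 1 CPM. RPL22L1, a close relative of RPL22 that can take its place in the ribosome, measured 308, 1079, 307 and 320 CPM, while RPL22 measured 644, 2050, 589 and 617 CPM. The RPL22L1 count was 47.8%, 52.6%, 52.1% and 51.8% of the RPL22 count in libraries 1 to 4. The log2 difference was -0.97 ± 0.06 (SD, n = 4), and library 2 departed from the median of the others by 0.02. In library 2 both were higher by similar factors, with ratios of 1.81 and 1.73.

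RPS27L, a relative of the zinc finger protein RPS27 and a target of p53, measured 64.9, 187, 64.8 and 67.6 CPM, and RPS27 measured 381, 1507, 351 and 401 CPM. The paralog count was 17%, 12.4%, 18.5% and 16.9% of the parent count in libraries 1 to 4. Both were highest in library 2, RPS27L by a ratio of 1.52 and RPS27 by 1.98. The log2 difference was -2.64 ± 0.26 (SD, n = 4), and library 2 lay -0.47 from the median of the others.

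RPL7L1 was lower in library 2. This RPL7-like gene, related to a yeast ribosome assembly factor, measured 60.8, 35.7, 47.7 and 54.9 CPM, lowest in library 2 with a ratio of -0.61. RPL7, a structural protein of the large subunit, measured 1962, 5417, 1813 and 1988 CPM. The RPL7L1 count was 3.1%, 0.659%, 2.63% and 2.76% of the RPL7 count in libraries 1 to 4. Their log2 difference was -5.66 ± 1.05 (SD, n = 4), or -5.13 ± 0.12 without library 2. In each of the 3 pairs the paralog had the smaller CPM in 4 of 4 libraries, and the exact two-sided permutation test that flips signs gave p = 0.13, also after adjustment over the 3 pairs. With 4 libraries, 2 of 16 sign assignments always reach the observed mean, so this is the smallest p possible and no pair could pass 0.05.

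**Figure D3:**
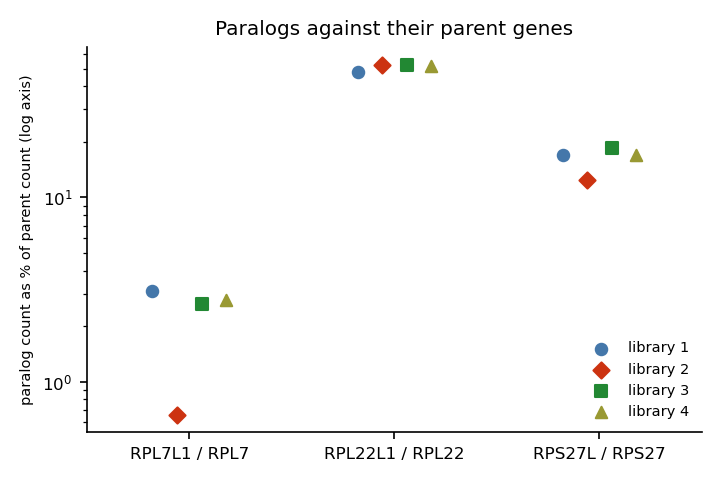
Points give the count of a paralog as a percent of its parent gene's count in each RF/6A library, on a log axis, for the 3 pairs with both genes measured on a single row. RPL22L1 stays between 47.8% and 52.6% of RPL22, whereas RPL7L1 is at 0.659% of RPL7 in library 2.

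Other paralogs were near 0. RPL3L, a striated muscle form of RPL3, had 0, 1, 2 and 1 counts, and a mean of 0.0492 CPM with an exact 95% Poisson interval of 0.0132 to 0.124 CPM over the libraries together. RPS4Y1 had 2 counts in library 1 and none in the others, with an upper limit of 0.0875 CPM. RPS4Y2 had 15, 21, 14 and 18 counts, or 0.855 ± 0.304 CPM (SD, n = 4). Both RPS4Y genes are close copies of RPS4X, and reads of RPS4X given to them by estimation cannot be told apart from their own. RPL10L, RPL26L1 and RPL39L matched no row. RPL36AL, outside the rule's spelling and with its parent RPL36A unmatched, measured 70, 273, 69.7 and 75 CPM.

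Genes that share the translation programme were read against the members. A list of 26 genes known or thought to carry the same kind of oligopyrimidine start had 24 matched, and all were expressed. Of these, 13 (54.2%) were at least 2-fold higher in library 2, against 19.4% of all genes, and 1 was at least 2-fold lower, and the median ratio was 1.11. RACK1, a scaffold on the small subunit, measured 1399, 4727, 1282 and 1444 CPM, a ratio of 1.76. FAU measured 184, 608, 174 and 193 CPM, a ratio of 1.72. EIF3G, an initiation factor subunit, had the highest ratio of the list at 2.03. Library 2 was the highest library in these 3 genes.

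Other genes of that list did not share the pattern. EEF1A1, the elongation factor that delivers aminoacyl-tRNA, measured 21297, 20445, 20943 and 21744 CPM, and its 4 libraries differed by little, with a ratio of -0.06. PABPC1, the poly(A)-binding protein, had 3549, 3200, 3549 and 3665 CPM and a ratio of -0.15. EEF2, the translocation factor, measured 4178, 4813, 4395 and 4874 CPM, a ratio of 0.13. IPO7, an import receptor for ribosomal proteins, had 264, 64.2, 263 and 247 CPM and a ratio of -2.03. With plain CPM the median of all genes lies at -0.49 in place of -0.07, so EEF1A1 and PABPC1 stay near that median under either scaling.

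Among 27 matched initiation, elongation and release factors outside that list, 5 were at least 2-fold higher and 8 at least 2-fold lower in library 2, with a median of 0.16. These are 18.5% and 29.6% of the list, close to the 19.4% and 26.8% of all genes. EIF4A1, a helicase of initiation, measured 1149, 2870, 1147 and 1294 CPM, a ratio of 1.32. EIF5A, which helps the ribosome through stalling sequences, measured 356, 1106, 371 and 409 CPM, a ratio of 1.58. EIF4G2, a scaffold of initiation, measured 1517, 102, 1582 and 1456 CPM, a ratio of -3.89. No ribosomal protein was 2-fold lower.

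Ribosome assembly factors were measured too. All 44 matched genes were expressed, 12 were at least 2-fold higher and 7 at least 2-fold lower in library 2, and the median was 0.46. The 2 counts are 27.3% and 15.9% of the list, where all genes had 19.4% and 26.8%. NCL, or nucleolin, measured 1053, 1333, 1113 and 1095 CPM, a ratio of 0.28. FBL, the methyltransferase fibrillarin, measured 237, 503, 199 and 254 CPM, a ratio of 1.08. GNL3, or nucleostemin, had 247, 348, 242 and 237 CPM and a ratio of 0.52. Among 12 matched genes of ribosomal DNA transcription, 1 was at least 2-fold higher and 3 at least 2-fold lower (8.33% and 25%), and UBTF, which activates the ribosomal RNA genes, had 202, 180, 171 and 172 CPM.

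Growth control genes were counted in the same way. Of 14 matched genes 13 averaged at least 1 CPM, with 2 at least 2-fold higher and 5 at least 2-fold lower in library 2. That is 15.4% and 38.5% of the 13, beside 19.4% and 26.8% of all genes. MYC, which drives transcription of ribosome genes, measured 253, 408, 250 and 266 CPM, a ratio of 0.69. RPS6KB2, a kinase of ribosomal protein S6, had 24.5, 70.4, 24 and 26.5 CPM, 2.83-fold higher in library 2. LARP1, which binds oligopyrimidine messenger RNAs and holds back their translation, had 1171, 0, 1124 and 945 counts. Its level in library 2 was at least 230-fold lower than in any other library, against a floor of 3 counts or 0.185 CPM. These are estimated counts, and whether the 0 reflects the transcript's level or the assignment of its reads was not tested. Of 5801 genes with at least 500 counts in each of libraries 1, 3 and 4, 5 had no count in library 2.

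The mitochondrial ribosome, which translates the genes of the mitochondrial genome and is built from a separate set of proteins, was also higher in library 2. Of 45 measured genes, 25 (55.6%, against 19.4% of all genes) were at least 2-fold higher and 1 at least 2-fold lower. The median of these genes was 1.12, with a range of -2.30 to 2.23. MRPL11 had a ratio of 1.43 and MRPS27 had -0.86. Among 14 matched small subunits of the respiratory chain, 13 (92.9%) were at least 2-fold higher and none 2-fold lower, against 19.4% and 26.8% of all genes. The share that was higher was close to the 92.2% of the ribosomal protein members. Their median was 1.68, with a range of 0.96 to 2.14, for these respiratory chain genes. COX4I1, a subunit of cytochrome oxidase, measured 142, 521, 160 and 185 CPM, a ratio of 1.70. The 15 proliferation genes had a median of -0.02, beside -0.07 for all genes, with 7 above 0. None was 2-fold higher and 2 (13.3%) were at least 2-fold lower, against 19.4% and 26.8% of all genes. The proliferation genes ran from TOP2A at a ratio of -1.80 to AURKB at 0.82, with MKI67 at -1.13 and CCNB1 at 0.70. The part that overall composition or RNA quality of library 2 plays in the ribosomal protein values was not tested.

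**Figure D4:**
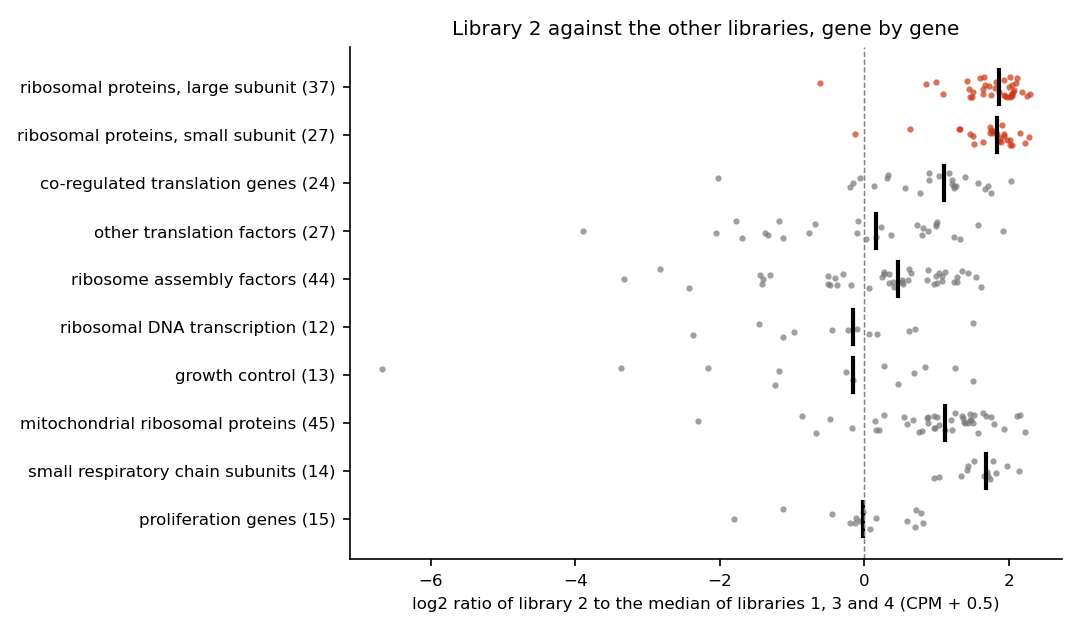
Each point is a gene that averaged 1 CPM or more, placed by the log2 ratio of its library 2 level to the median of libraries 1, 3 and 4 (CPM + 0.5, TMM), for the ribosomal proteins (red) and other gene lists (grey, number of genes in brackets), with black bars at list medians. Ribosomal proteins cluster near their medians of 1.87 and 1.84, and the leftmost point is LARP1, which had no count in library 2.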

How the data were processed

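Estimated counts for 4 libraries were deposited as whole numbers, with rhesus Ensembl gene identifiers. The tools listed, per the submitters' processing notes, are Salmon and DESeq2, with neither version nor role. The sources used here do not give build, annotation or library preparation. The sequencer was a BGISEQ-500 per the labels' protocols. Estimation shares reads among similar transcripts, so counts of near-identical genes are uncertain.

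Of 21314 rows, 14654 received a symbol from a table that pairs Ensembl identifiers with names. Counts were scaled with TMM in edgeR 4.0.16 (R 4.3.3) and given as CPM. Ratios used log2(CPM + 0.5) in the 12453 genes that averaged 1 CPM or more. Dixon's gap test for 4 samples (critical value 0.829) was used to describe libraries standing apart, and paralog pairs were tested with an exact sign-flip permutation test and Benjamini-Hochberg adjustment in scipy 1.17.1. Scaling, ratios and gap test were run on simulated data in which a set of genes was raised in library 2 and none lowered. The real library 2 also had many lower genes, so the simulation does not test the scaling under that shift in composition. The alternatives were plain CPM, DESeq2 1.42.0 size factors, upper quartile scaling, other pseudocounts, thresholds and filters, and leaving out each library.

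The design called for levels per coding length. No lengths or sequences were at hand, so levels are CPM and no sequence is shown. Members, lists and tests were chosen with earlier results of these data known. Named were the stalk genes and RPSA, paralogs and parents, 7 genes known from disease or signalling (those matched), the 5 highest and 5 lowest standard members in CPM and the 5 highest and 5 lowest members in library 2 ratio, and the leading genes of each other list, except that 3 members are not reported here by name. RPL8, RPL12, RPL13A, RPL17, RPL19, RPL23A, RPL28, RPL35, RPS2 (main row), RPS21, RPS23, RPS24, RPS25, RPS27A (main row), RPS28, RPS29, EEF2, CDH5 and AURKB were added after their values were seen. ERG, TEK and NOS3 were added in the same way.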

Additional observations from a re-analysis of the deposited data

Results flagged for a closer look

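Dixon's gap test was applied to 4 shares of counts and to 29 of the member rows named by the rule, 33 values in all. It marked 28 of them. Chance marks about 1 in 20 groups, but that rate is no yardstick here, because the raised share of library 2 was known when the set was chosen and some rows were named for their library 2 ratio. The marks are a description. Library 2 stood apart in 27, always as the highest, and these values share a library and are not independent. Over all expressed members it lay apart and highest in 61 of 64, against 21.8% of all genes, and apart and lowest in none, against 11.2%.

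In shares of counts, library 2 was high for all members (16.1%), for large subunit rows (9.84%), for small subunit rows (6.31%) and for rows without a symbol (21.7%). In CPM, it was high for the stalk genes RPLP1 (3850) and RPLP2 (4220), for both RPSA rows (6482 and 110) and for the paralogs RPL22L1 (1079) and RPS27L (187).

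Among large subunit genes, library 2 was high in CPM for RPL3 (7796), RPL4 (11273), RPL5 (5294), RPL7 (5417), RPL7A (7075), RPL10 (3820), RPL22 (2050), RPL26 (364), RPL36 (181), RPL38 (1276) and RPL39 (860). Among small subunit genes it was high for RPS3 (3831), RPS4X (10718), RPS14 (4601), RPS15A (933), RPS19 (2893) and RPS27 (1507). RPS4Y1 was set apart by library 1, at 0.091 CPM, which rests on 2 counts.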

How the results depend on the processing

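Changing the denominator of the share to rows with a symbol gave 7.82%, 20.6%, 7.45% and 8.23% in libraries 1 to 4, leaving the 10 highest other genes out of it gave 7.38%, 17.7%, 7.09% and 7.82%, and counting standard names alone gave 6.68%, 16%, 6.43% and 7.06%. The mean share lay between 6.77% and 9.99% with each library left out in turn, the lowest value being without library 2. The median log2 ratio of library 2 was 1.40 with plain CPM and 2.05 with upper quartile scaling, because these set the level of all genes differently, and between 1.79 and 1.87 under the other alternatives. Counts of expressed members were 63 or 64, of members 2-fold higher in library 2 between 55 and 61, and of members with library 2 apart and highest between 57 and 61. The SD across standard members was 1.57 over rows that averaged at least 5 CPM, an alternative chosen after seeing the data, and lay between 2.23 and 2.28 with a library left out. Paralog differences kept their sign under every alternative run, but this was fixed in advance. Neither the scaling nor the pseudocount can change which gene of a pair is higher within a library. The paralog was lower in all 4 libraries, so leaving a library out cannot change the sign. Without library 2 the RPL7L1 difference was -5.13. Division by length was not run, since no lengths were at hand. No paired analysis was possible because there is 1 group. Depth limits RPL3L, RPS4Y1, RPS4Y2 and the second RPS2 row, whose counts are few.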

Other observations

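Names of large subunit proteins were given by their position on gels, so that low numbers tend to be larger proteins. This description was chosen after the values were seen. Across the 33 numbered standard large subunit members, the library 2 log2 ratio and the number in the gene's name had a Spearman correlation of 0.60, and the median ratio was 1.54 for the 10 members numbered up to 10 and 1.98 for the 23 numbered higher. In the small subunit the correlation was 0.12 over 24 members, with medians of 1.78 for 7 members and 1.88 for 17. These genes share libraries, and no test was made. The ratio had a Spearman correlation of -0.21 with the mean log2(CPM + 0.5) of libraries 1, 3 and 4 across 61 standard members.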
